A study of Mus musculus with 24 samples.

Results

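The subject here is the way in which the response to added blood progenitors differed between the endothelium and the stroma of the mouse bone marrow. It was measured as an interaction over the 12 libraries of the co-culture arm, out of 24 libraries in the series. For each gene the difference between endothelium with HSPC and endothelium alone was taken on log2(FPKM + 1), and the same difference in stroma was subtracted from it. A positive interaction is therefore a response that was more upward, or less downward, in endothelium than in stroma. FPKM counts sequenced fragments after scaling to transcript length and library size, so levels can be set side by side between genes. Of the 23879 genes listed, 14017 had at least 1 FPKM in at least 3 of the 12 libraries and were tested.

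All cells came from C57BL/6J mice and were grown in vitro. The 4 groups had 3 libraries each: BMEC-Akt1 CC-Alone (marrow endothelial cells kept alone), BMEC-Akt1 CC+HSPC (the same with hematopoietic cells added), BMS-Akt1 CC-Alone (marrow stroma kept alone) and BMS-Akt1 CC+HSPC (stroma with hematopoietic cells added). The sample names call the added cells HSPC (hematopoietic stem and progenitor cells), while another label field calls them hematopoietic stem cells. Every name carries Akt1, also those of the cells kept alone; the labels do not say what was done with this kinase. They give no age, dose, duration or cell number, and do not say whether the blood cells were removed before RNA was taken. PolyA RNA was sequenced as paired ends. The labels number the libraries of a group but do not tie them to separate cultures or animals, so the p-values rest on the scatter of these libraries alone, which could be purely technical.

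Hematopoietic stem cells live in the marrow next to endothelial cells, which line its arterioles and sinusoids, and next to mesenchymal stromal cells, which wrap the vessels and lay down matrix. Both supply maintenance signals such as the chemokine Cxcl12 and the cytokine Kitl. Blood progenitors in turn proliferate, use oxygen and glucose, and release cytokines and proteases, so a co-culture changes the surroundings of the feeder cells as well as adding RNA of the blood cells themselves. In such bulk samples fewer cells of a type and less RNA per cell cannot be told apart.

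Pecam1, Cdh5 and Col1a1 separated the cell types as their labels call for. With endothelium alone, Pecam1 lay at 3922 to 4249 FPKM and Cdh5 at 3965 to 4086 FPKM, and in stroma alone both were listed at 0. Col1a1 lay at 24811 to 28851 FPKM in stroma alone and at 0.48 to 7.66 FPKM in endothelium alone. Lists of stromal genes separated the cell types less. The summed FPKM of 25 mesenchymal matrix genes was 117901 to 125352 in stroma alone and 19283 to 19527 in endothelium alone. For 16 smooth muscle and pericyte genes it was 818 to 953 and 727 to 796. Pearson's r between libraries of a group, over the 14017 tested genes on the log2 scale, was 0.995 to 0.996 in 3 groups and 0.988 to 0.995 in stroma with HSPC. In that group replicate 2 differed at least 2-fold in one direction from both of the others in 181 genes, against 83 for replicate 1 and 65 for replicate 3. List counts that turn on this library are given without it below. The added cells showed in the RNA: the summed FPKM of 20 granulocyte genes lay between 51.1 and 58.5 in endothelium alone and between 1846 and 2097 with HSPC, and between 26.4 and 29.9 in stroma alone and between 744 and 953 with HSPC.

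The 2 cell types responded differently in most genes. The interaction was called in 7996 genes, 57% of those tested, with 5045 higher (36%) and 2951 lower (21.1%); calls rest on a Benjamini-Hochberg adjusted p under 0.05 from limma. An interaction of at least 2-fold was called in 1920 genes (13.7%), 1106 higher (7.89%) and 814 lower (5.81%). The response itself was called in 6813 genes in endothelium (48.6%), of which 3962 rose (28.3%) and 2851 fell (20.3%). In stroma it was called in 8551 genes (61%), of which 3588 rose (25.6%) and 4963 fell (35.4%). The counts of list members below are to be read beside these shares of all tested genes. Responses of at least 2-fold were called in 7.26% of tested genes in endothelium (4.76% up, 2.5% down) and in 11.1% in stroma (5.87% up, 5.21% down). With the spread estimated over all 24 libraries, 1442 higher and 832 lower interactions were called. Of 183 named results 59 were not called in that fit (adjusted p of 0.0508 to 0.548, limma); among genes described below these were the interactions of Ccl2, Nptx1, Olfml2a, Plvap, Selp, Nrp2, Fbn1, Lox, Nt5e, Spp1, Cebpb, Notch3, Tagln, Lcn2, Hey2, Dkk2, Scd1, Hspa5, Hmox1, Mmp10, Pdgfa and Procr. The interactions of Igf2 (0.0671) and Hey2 (0.186) were not called with 0.1 FPKM added in place of 1. The share of higher calls depended on scaling. It was 58.2% of the endothelial calls as deposited, 50.3% after trimmed-mean scaling and 45.5% after quantile normalization, and 63.1%, 55.2% and 54.3% of the interaction calls. Over all tested genes the median interaction was 0.11, and 0.05 and 0.03 under those scalings, and small positive interactions are to be read against that shift. The middle 90% of genes lay between -0.65 and 0.98 in endothelium and between -1.02 and 1.13 in stroma, beside a median standard error of 0.07 in each.

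Each tested gene was placed by its 3 calls. Opposite responses, called in both cell types with opposite signs, were found in 1583 genes (11.3% of those tested): 1000 rose in endothelium and fell in stroma, and 583 did the reverse. The 3 libraries with HSPC lay apart from the 3 alone in both cell types in 949 and 533 of these, and in 39.9% of all tested genes; in endothelium taken by itself they lay apart in 61.2% of all tested genes and in stroma in 63%. With the spread estimated over all 24 libraries, 137 genes were opposite. A shared response without a called interaction was found in 1485 genes, of which 778 rose and 707 fell. A further 1364 genes moved the same way by unequal amounts, 733 up and 631 down. One-sided responses, with a called interaction and a call in 1 cell type, numbered 1717 in endothelium (1048 rose, 669 fell) and 3155 in stroma (1087 rose, 2068 fell). Another 177 genes had a called interaction alone, 1628 were called in 1 cell type without an interaction, and 2908 had no call.

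The overlap of the calls shows the same mixture. Of the genes that rose in endothelium, 1511 also rose in stroma (38.1% of the endothelial and 42.1% of the stromal list), while 1000 fell there (25.2% of the endothelial rises and 20.1% of the stromal falls). Of those that fell in endothelium, 1338 also fell in stroma (46.9% and 27% of the 2 lists), and 583 rose (20.4% and 16.2%). Across genes the 2 responses, which share no library, had a Pearson's r of 0.33 and a Spearman's rho of 0.218; genes are not independent replicates, and blood cell transcripts add to both. With a mean of at least 1 FPKM alone in both cell types required (11549 genes) these were 0.291 and 0.222. HSPC did not make the cell types uniformly more or less alike: among genes with a called interaction the distance between endothelium and stroma was wider with HSPC in 53.3% and narrower in 46.7%, beside 52.6% wider among all tested genes. The cell type with the higher level changed in 1769 of the 7996 genes (22.1%), against 15.6% of all tested genes. On the linear FPKM scale 319 of the 7996 interactions (3.99%) had the other sign.

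**Figure D1:**
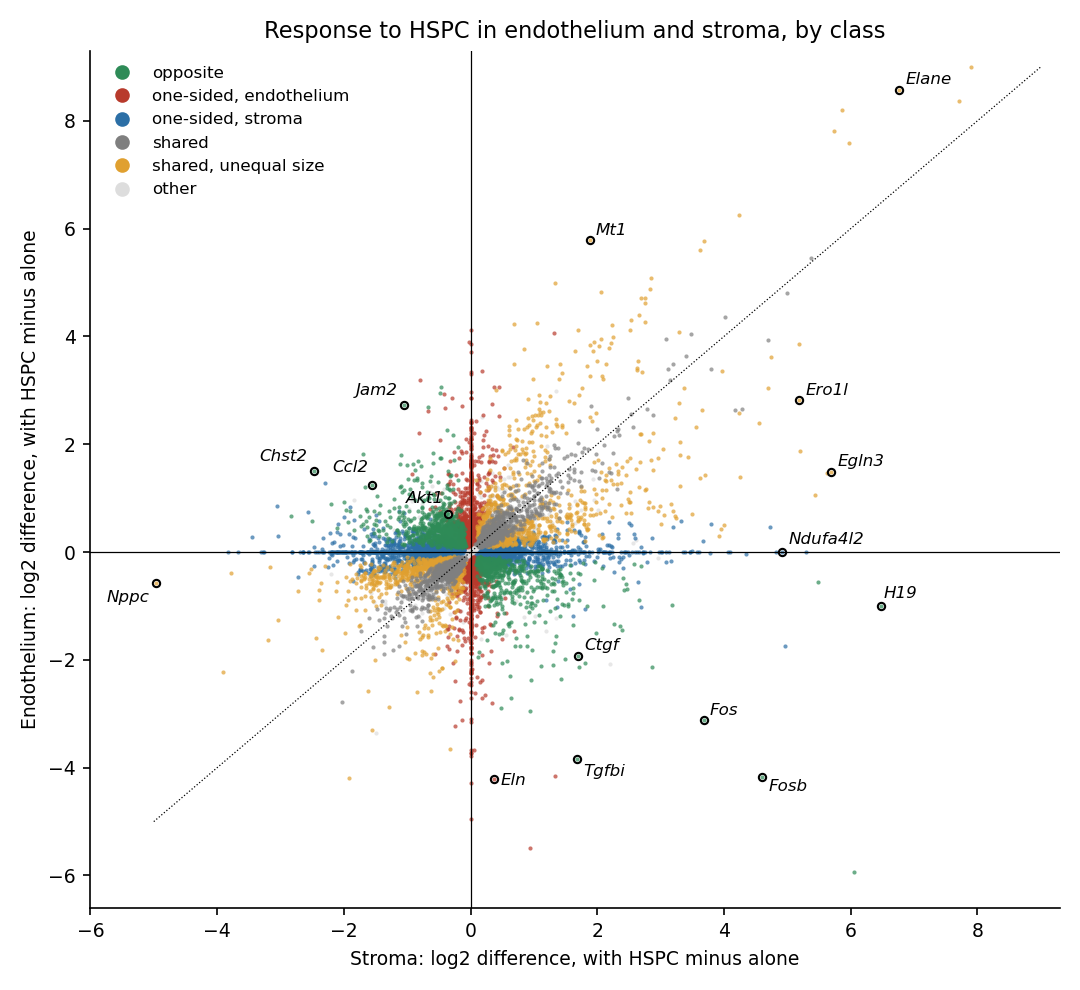
Response of each tested gene in stroma (horizontal axis) and endothelium (vertical axis), each as the log2(FPKM + 1) difference with HSPC minus alone; every point is 1 of 14017 genes, coloured by response class, with named genes ringed and the dotted line marking equal responses. The 1583 opposite genes fill the upper left and lower right of the plot, where Fosb (-4.18 in endothelium and 4.60 in stroma) and Fos (-3.12 and 3.68) lie far from the centre.

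Several of the largest opposite responses belonged to immediate-early genes, which cells switch on within minutes of a stimulus. They include the subunits Fos and Fosb of the transcription factor AP-1. Fos lay at 1009.7, 1152 and 1060.1 FPKM in the 3 libraries of endothelium alone and at 136, 94.3 and 144 FPKM with HSPC. In stroma it lay at 59, 54.5 and 60.3 FPKM alone and at 786, 674 and 806 FPKM with HSPC. The groups did not overlap in either cell type, and endothelium had the higher level alone and the lower one with HSPC. The log2 difference was -3.12 in endothelium and 3.68 in stroma, and limma gave an interaction of -6.80 (SE 0.19, adjusted p = 1.83e-09). Fosb went from 392, 473 and 383 to 21.4, 16.4 and 29.8 FPKM in endothelium. In stroma it went from 7.89, 8.61 and 9.32 to 261, 199 and 241 FPKM, and its interaction of -8.79 (SE 0.25, adjusted p = 1.89e-09) was the most negative of the genes that the naming rule admits.

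Of 24 immediate-early genes, 19 rose and 3 fell in stroma, where 25.6% and 35.4% of all tested genes did. In endothelium 3 rose and 12 fell, beside 28.3% and 20.3% of all tested genes. The interaction was lower in 22 of the 24 members and higher in 2, against 21.1% and 36% of all tested genes, and 9 members were opposite. The median difference of the list was -0.49 in endothelium and 2.04 in stroma, and its median interaction was -2.39, where the medians over all tested genes were 0.02, -0.04 and 0.11. Egr1, a zinc finger factor, fell by 1.51 in endothelium and rose by 1.98 in stroma. Zfp36, which speeds the decay of cytokine mRNAs, fell by 1.98 and rose by 1.50. Atf3, a stress-responsive member of the ATF family, fell by 0.99 and rose by 3.18.

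The family was not uniform. Dusp1, a phosphatase that turns off MAP kinases, was one-sided: it rose in stroma from 19.8, 19.9 and 26.6 to 189.7, 201 and 187 FPKM, while endothelium held 478 to 581 FPKM alone and 456 to 499 FPKM with HSPC. Ier3 rose in both cell types, by 1.68 in endothelium and 2.67 in stroma. The 2 members with a higher interaction were Fosl2, which rose by 1.66 in endothelium and 0.87 in stroma, and Nr4a2, an orphan nuclear receptor. Nr4a2 fell in stroma from 193, 189 and 185 to 38.2, 42.4 and 40.1 FPKM and rose in endothelium from 15.6, 13.3 and 17.1 to 33.4, 28.4 and 26.3 FPKM.

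Genes that ERK signaling induces and that feed back on it moved in the same directions. Of 15 such genes, 8 fell and 1 rose in endothelium, 8 rose and 1 fell in stroma, and 12 had a lower interaction with 0 higher. The count of higher interactions was 1 without replicate 2 of stroma with HSPC, and also 1 without replicate 3 of endothelium alone; 3 fell in stroma without the former. Spry1, an inhibitor of receptor tyrosine kinase signaling, went from 6.19, 7.36 and 6.96 to 2.58, 2.15 and 3.43 FPKM in endothelium. In stroma it went from 17.2, 15 and 17.2 to 33.3, 51.8 and 39.1 FPKM. Dusp6, an ERK phosphatase, fell by 0.35 in endothelium, where it was abundant (586 to 628 FPKM alone), and rose by 0.95 in stroma (9.33 to 9.75 FPKM alone).

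The stromelysins Mmp3 and Mmp10, secreted matrix proteases whose promoters are textbook targets of AP-1, also rose in stroma. In stroma with HSPC both were highest in replicate 2, where Fos and Fosb were lowest. Whether AP-1 had a part in their rise was not tested. Mmp3 lay at 73.7, 65.2 and 63.2 FPKM in stroma alone and at 213, 1245 and 324 FPKM with HSPC, with replicate 2 far above the other 2 and all 3 above the cells alone. In endothelium it was at 1.11 to 2.08 FPKM alone and 0 to 1.14 FPKM with HSPC, and the interaction was -3.72 (SE 0.74, adjusted p = 0.00132). Mmp10 went from 0.65, 0.66 and 0.78 to 2.97, 32.8 and 8.09 FPKM in stroma and was listed at 0 in all 6 endothelial libraries. The bases just upstream of both genes are shown because an AP-1 consensus lies close to each start; the letters TGANTCA (either strand, in capitals) occur in 7.81% of the 32851 promoters of the RefSeq table, which cover 250 bases before to 50 after a start. Sequences are from RefSeq, build GRCm38.p6, in the direction of the gene and ending at the base before the start. Both genes lie on the plus strand, Mmp3 at chr9:7445702-7445821 and Mmp10 at chr9:7502222-7502341.
Mmp3: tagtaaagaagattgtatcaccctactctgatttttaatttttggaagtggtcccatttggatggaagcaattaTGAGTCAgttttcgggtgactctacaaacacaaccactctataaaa
Mmp10: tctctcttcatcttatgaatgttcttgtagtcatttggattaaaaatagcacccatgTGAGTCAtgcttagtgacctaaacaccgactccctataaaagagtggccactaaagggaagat

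Other genes that fell in endothelium and rose in stroma encode matrix proteins. Tgfbi, a secreted adhesion protein induced by TGF-beta, lay at 94.1, 101 and 96.6 FPKM in endothelium alone and at 7.21, 6.08 and 4.49 FPKM with HSPC. The stromal values were 127, 124 and 122 FPKM alone and 421, 361 and 426 FPKM with HSPC. The cell types were close when alone and differed over an order of magnitude with HSPC, and the interaction was -5.53 (SE 0.17, adjusted p = 2.57e-09). Ctgf, a matricellular protein under the control of YAP and TGF-beta, fell from 294, 312 and 336 to 83.9, 82.7 and 79.1 FPKM in endothelium. It rose from 139, 142 and 151 to 528, 323 and 591 FPKM in stroma, where replicate 2 was the lowest of the 3, and its interaction was -3.61 (SE 0.24, adjusted p = 4.23e-07).

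Col15a1, a basement membrane collagen, went from 5.31, 6.76 and 5.63 to 0.7, 0.48 and 0.56 FPKM in endothelium and from 1.33, 1.48 and 1.29 to 12.8, 20.1 and 16.3 FPKM in stroma. Chst3, which sulfates chondroitin chains, went from 5.99, 4.26 and 4.44 to 0.31, 0.28 and 0.4 FPKM in endothelium and from 2.5, 2.53 and 2.48 to 10.1, 7.79 and 14.7 FPKM in stroma. Both were low genes in endothelium, so the log2 scale with 1 added understates their fall. Timp3, an inhibitor of metalloproteases bound to the matrix, fell in endothelium from 1051, 1032 and 1048 to 304, 304 and 326 FPKM and rose by 0.89 in stroma. H19, an imprinted noncoding RNA, was nearly absent alone in both (0.89 to 1.89 FPKM in endothelium, 2.28 to 2.49 FPKM in stroma). With HSPC it lay at 214, 385 and 328 FPKM in stroma and at 0.49, 0 and 0 FPKM in endothelium. The hairpin gene Mir27a, which the naming rule leaves out and which was picked for its values, had the most negative interaction of all: it was at 60.7 ± 5.74 FPKM (SD, n = 3) in endothelium alone and listed at 0 with HSPC, and listed at 0 in stroma alone and at 66.6 ± 17.1 FPKM with HSPC. FPKM of so short a gene are uncertain.

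Of 15 TGF-beta targets, 9 rose and 2 fell in stroma, 5 rose and 7 fell in endothelium, and the interaction was lower in 9 and higher in 3 (median -0.78). Smad7, an inhibitor of the pathway, rose in both, by 1.88 in endothelium and 0.99 in stroma. Of 14 YAP targets, 11 fell and 0 rose in endothelium, 6 fell and 1 rose in stroma, and 8 had a lower and 3 a higher interaction. Over all tested genes 28.3% rose and 20.3% fell in endothelium, and 25.6% rose and 35.4% fell in stroma. The interaction was lower in 21.1% and higher in 36% of them. Without replicate 2 of stroma with HSPC, 10 YAP targets fell in stroma and 1 rose in endothelium, and 4 TGF-beta targets fell in stroma. Without replicate 1 of that group 1 YAP target rose in endothelium, and 2 YAP targets rose in stroma without replicate 2 of endothelium alone. Cyr61, a matricellular relative of Ctgf, fell by 1.48 in endothelium, with values of 962 to 1055 FPKM in stroma alone and 809 to 1043 FPKM with HSPC.

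In the mesenchymal matrix list the interaction was lower in 15 of 25 members and higher in 2 (median -0.90), with 10 rising and 8 falling in stroma and 4 rising and 14 falling in endothelium. Over all tested genes the interaction was lower in 21.1% and higher in 36%. In stroma 25.6% of all tested genes rose and 35.4% fell, and in endothelium 28.3% and 20.3%. Without replicate 2 of stroma with HSPC, 4 members were higher. Some of its genes are near 0 in endothelium, where a fall describes traces: Col1a1 was at 0.32 to 0.94 FPKM there with HSPC. However, 19 of the 25 had a mean of at least 1 FPKM alone in both cell types. In the fit of such genes 13 of the 19 fell and 4 rose in endothelium, and 13 had a lower and 1 a higher interaction. Fbn1, the microfibril protein fibrillin, was expressed in both; it fell in endothelium from 71.5, 76.5 and 64 to 9.4, 8.25 and 8.16 FPKM and rose in stroma from 552, 519 and 490.2 to 777, 581 and 839 FPKM, and the libraries overlapped in neither. Lox, which crosslinks collagen and elastin, rose in stroma from 2987, 2952 and 2987 to 7448, 7055 and 7923 FPKM and fell in endothelium from 9.71, 10.2 and 7.5 to 1.92, 2.46 and 2.07 FPKM. Fn1, fibronectin, rose by 1.42 in stroma and fell by 0.42 in endothelium. Lum, a small proteoglycan, went the other way: it fell in stroma from 696, 698 and 703 to 168, 147 and 109 FPKM and was listed at 0 in endothelium.

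**Figure D2:**
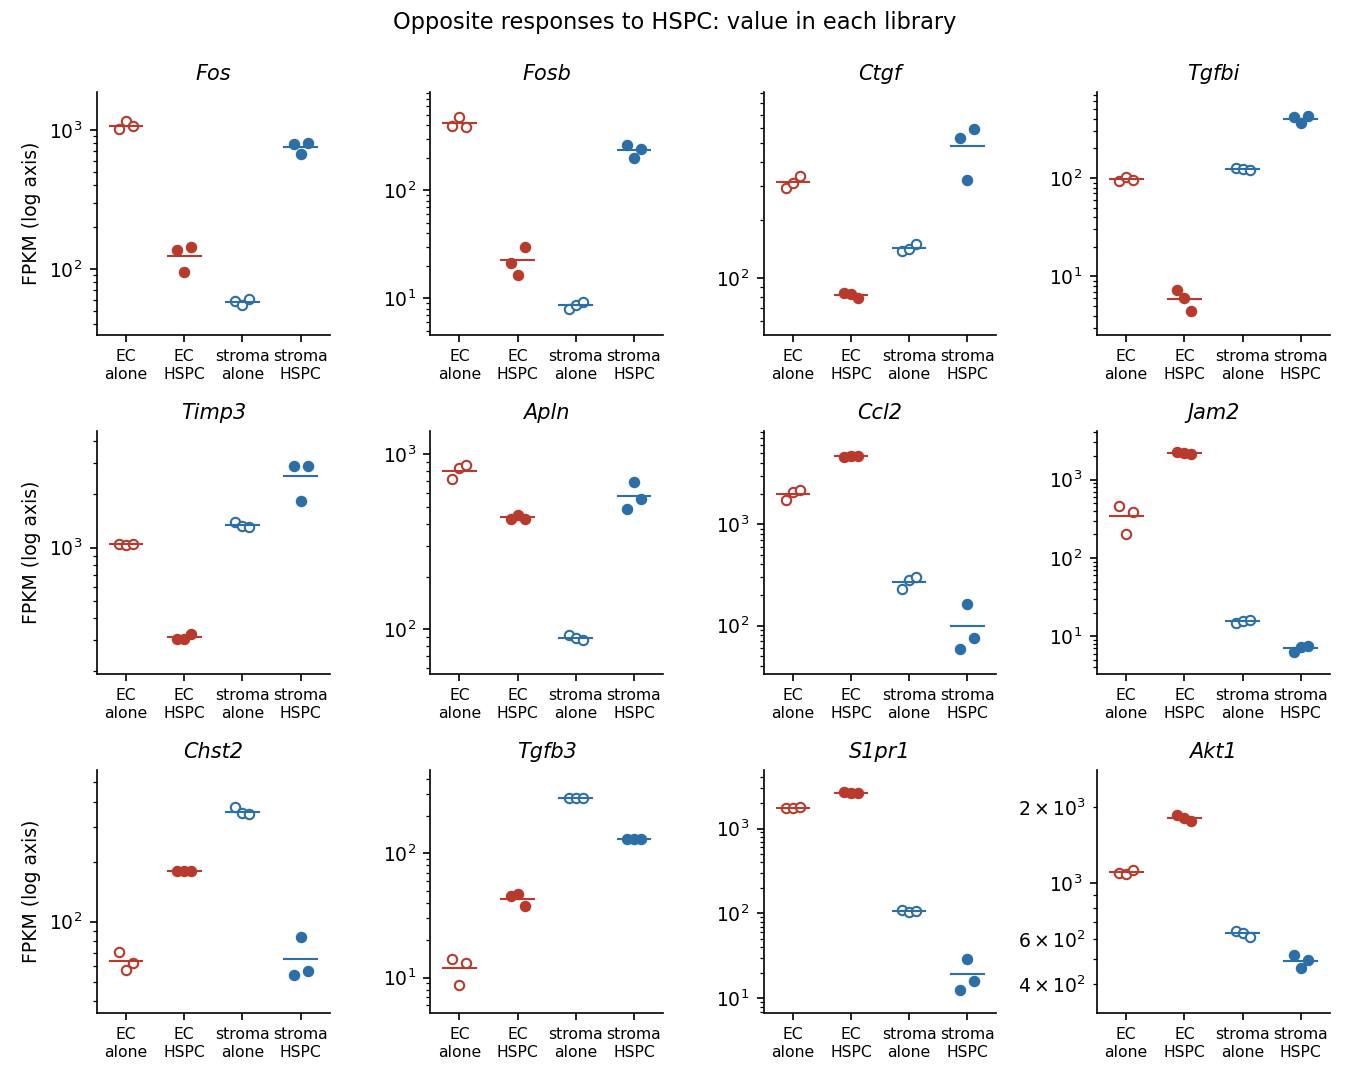
FPKM in each of the 12 libraries (log axis) for 12 opposite genes; open points are cells alone, filled points cells with HSPC, red is endothelium (EC), blue is stroma, and the bar is the mean of 3 libraries. In Fos, Fosb and Apln the endothelial points start above the stromal ones and end below them, and in Chst2 the reverse is seen.

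In the other direction, rising in endothelium and falling in stroma, Chst2, which sulfates the glycans that selectins bind, lay at 70.2, 57.1 and 62.3 FPKM in endothelium alone and at 179, 179 and 180.3 FPKM with HSPC. The stroma held 374, 350.1 and 346 FPKM alone and 53.8, 83.9 and 56.7 FPKM with HSPC. The stroma had the higher level alone and the endothelium with HSPC, and the interaction was 3.97 (SE 0.19, adjusted p = 4.15e-08). Ccl2, a chemokine that draws monocytes, rose from 1722, 2049 and 2181 to 4580.1, 4732 and 4679.9 FPKM in endothelium and fell from 227, 278 and 303 to 58.6, 165 and 75.1 FPKM in stroma. Its interaction was 2.80 (SE 0.41, adjusted p = 0.00014), and the adjusted p was 0.166 when the spread was estimated over all 24 libraries.

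Tgfb3, a TGF-beta ligand, rose from 14.1, 8.66 and 13 to 45, 47 and 38 FPKM in endothelium and fell from 283, 277 and 282 to 131, 131 and 130.2 FPKM in stroma. Lmcd1, a LIM domain cofactor, went from 54.9, 43.3 and 46.4 to 158, 148 and 146 FPKM in endothelium and from 35.4, 32 and 37.5 to 17.6, 14 and 15.4 FPKM in stroma. Syt13, a synaptotagmin, rose by 1.83 in endothelium and fell by 1.69 in stroma, where it reached only 3.14 to 3.85 FPKM alone. Nsg1, an endosomal protein, rose by 1.11 and fell by 1.08. Akt1 itself was opposite, rising by 0.71 in endothelium and falling by 0.36 in stroma (interaction 1.08, SE 0.06, adjusted p = 1.86e-07), so the level of the gene that the sample names carry moved with the comparison; its part in the other results was not tested.

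Among adhesion genes, Jam2, a junctional adhesion molecule that leukocytes bind, rose in endothelium from 457, 199 and 385 to 2221, 2164 and 2114 FPKM and fell in stroma from 14.7, 15.8 and 16.3 to 6.24, 7.28 and 7.56 FPKM (interaction 3.77, SE 0.32, adjusted p = 2.67e-06). S1pr1, the sphingosine-1-phosphate receptor, rose by 0.58 in endothelium (1759 to 1784 FPKM alone) and fell by 2.50 in stroma (104 to 109.8 FPKM alone). Nrp2, a coreceptor for VEGF-C and semaphorins, rose by 0.76 in endothelium and fell in stroma from 1029, 961 and 935 to 325, 320.3 and 296 FPKM. Vcam1, which holds blood progenitors through an integrin, was one-sided: it fell in stroma from 749, 745 and 776 to 191, 307 and 173 FPKM and was at 51.3 to 60.9 FPKM alone and 49.7 to 52.9 FPKM with HSPC in endothelium. Bmp2, a bone morphogenetic protein, rose by 0.66 in endothelium and fell by 1.75 in stroma.

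Cholesterol synthesis had a uniform interaction. It is the chain of enzymes from acetyl-CoA to cholesterol that SREBP2 controls, listed here with its regulators. All 23 tested members had a higher interaction, where 36% of all tested genes did. In endothelium 22 rose and 1 fell (Dhcr7, by 0.33), and in stroma 17 fell and 0 rose, so that 16 were opposite; 1 rose in stroma without replicate 2 of stroma with HSPC. The median difference was 0.66 in endothelium and -0.38 in stroma. The median interaction was 1.19, and 1.12 and 1.15 under the 2 other scalings. The count stayed at 23 without replicate 2 of stroma with HSPC. Sqle, squalene epoxidase, was the member farthest from the rest in stroma, at 123, 148 and 149.6 FPKM alone and 193, 132 and 167 FPKM with HSPC, a difference of 0.21 that missed the threshold (adjusted p = 0.139).

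Mvd, which makes isopentenyl diphosphate, rose from 64.3, 78.3 and 73.5 to 154, 158 and 155 FPKM in endothelium and fell from 32.7, 36 and 35.1 to 22.9, 20.4 and 20.3 FPKM in stroma (interaction 1.79, SE 0.10, adjusted p = 1.23e-07). Tm7sf2, a sterol reductase, rose from 34.1, 37.1 and 39.5 to 81.2, 89.8 and 89.7 FPKM in endothelium. In stroma it fell from 18.8, 20.3 and 20.3 to 13.5, 11.2 and 9.1 FPKM. Acat2, at the entry of the pathway, rose by 0.62 and fell by 1.14. In fatty acid synthesis, 8 of 15 members had a higher and 4 a lower interaction. Scd1, which desaturates fatty acids, rose by 0.53 in endothelium and fell by 1.02 in stroma.

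Cytosolic ribosomal protein genes had a lower interaction at small size. Of 24 members, all 24 rose in stroma, 14 fell and 0 rose in endothelium, and 23 had a lower interaction; 14 were opposite. The endothelial falls numbered 6 and 9 without replicates 2 and 3 of endothelium alone, and 8 and 7 without replicates 2 and 3 of endothelium with HSPC. The medians were -0.17, 0.43 and -0.61, the last between -0.54 and -0.68 under the other scalings. Ribosomal protein genes have many near-identical pseudogenes, and how reads matching several copies were counted is not given in the sources used here, so these values are uncertain.

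Genes of the interferon response, which encode antiviral effectors and their STAT and IRF regulators, fell in stroma and mostly did not pass the test in endothelium. Of 32 members, 29 fell and 1 rose in stroma (Ifi44, by 1.08). In endothelium 8 rose and 3 fell, or 1 fell without any 1 of 5 of the 6 endothelial libraries, replicate 2 of endothelium alone being the exception. The interaction was higher in 28 and lower in 0, with a median of 1.38; 18 members were one-sided in stroma and 6 opposite. In the cells alone, replicate 2 of stroma stood above the other 2 in several members. Without it 27 members fell in stroma, and 28 had a higher and 1 a lower interaction.

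Ifit1, which binds foreign RNA, lay at 17.4, 53.2 and 23.7 FPKM in stroma alone and at 5.49, 6.08 and 4.56 FPKM with HSPC. In endothelium it lay at 48.8, 39.2 and 41.2 FPKM alone and at 36.5, 43 and 46 FPKM with HSPC, where the groups overlapped. Isg15, a ubiquitin-like modifier, fell in stroma from 24.7, 56.8 and 38.2 to 14.8, 15.3 and 10.2 FPKM and was at 107, 91 and 96.7 FPKM alone and 103, 111 and 123 FPKM with HSPC in endothelium. Ifit3 fell in both cell types, by 0.71 in endothelium and 2.73 in stroma. Dhx58, a sensor of viral RNA, was opposite: it rose by 1.32 in endothelium and fell by 0.65 in stroma. Iigp1, an interferon-inducible GTPase, fell in stroma from 5.58, 16.5 and 6.01 to 2.09, 2.32 and 0 FPKM, with 16.2 to 21.3 FPKM in endothelium alone and 24.5 to 29.6 FPKM with HSPC. Several of these genes, such as the Gbp and Ifit families, have close copies, so their separate values are uncertain.

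The bases before 3 of these genes are shown because the interferon-stimulated response element, searched on both strands as GAAA followed after any 2 bases by a second GAAA, lies within the shown stretch of each; it occurs in 3.44% of the 32851 promoters of the table. Too few members of the list matched the table to give its own share. Capitals mark the matches, which overlap each other in Isg15 and lie on the opposite strand, read as TTTC, in Ifit1 and Ifit3. Isg15 lies on the minus strand at chr4:156200819-156200938, Ifit1 on the plus strand at chr19:34640769-34640888 and Ifit3 on the plus strand at chr19:34583369-34583528 (GRCm38.p6).
Isg15: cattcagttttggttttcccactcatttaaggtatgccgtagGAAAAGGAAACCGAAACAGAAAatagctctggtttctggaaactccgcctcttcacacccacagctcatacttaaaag
Ifit1: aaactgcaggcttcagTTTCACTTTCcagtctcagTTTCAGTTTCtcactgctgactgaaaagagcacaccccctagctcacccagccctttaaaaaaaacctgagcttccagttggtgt
Ifit3: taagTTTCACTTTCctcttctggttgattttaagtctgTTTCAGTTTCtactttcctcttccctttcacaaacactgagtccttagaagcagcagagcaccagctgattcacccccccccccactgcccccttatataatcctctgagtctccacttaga

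Antigen presentation by MHC class I moved with the interferon genes in part. Of 16 members, 10 fell and 3 rose in stroma, 5 rose and 1 fell in endothelium, and 10 had a higher interaction with 1 lower; 2 fell in endothelium without replicate 2 of stroma with HSPC. Tapbp, which loads peptide onto class I molecules, fell in stroma from 556, 519.9 and 529 to 173, 207 and 160.3 FPKM and was at 304 to 314 FPKM alone and 300.2 to 339 FPKM with HSPC in endothelium. Psmb10, an immunoproteasome subunit, fell by 1.70 in stroma. The class I heavy chain H2-K1, by contrast, rose in both, by 1.42 in endothelium and 1.09 in stroma, and H2-T23 rose by 0.91 and 1.81; these genes have close copies.

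Most genes of the ATF4 and amino acid response rose in stroma; the response supplies amino acids and their transporters under stress. Of 28 members, 24 rose and 1 fell in stroma, 8 rose and 5 fell in endothelium, and 22 had a lower interaction; 12 were one-sided in stroma. The endothelial falls numbered 3 without replicate 2 or 3 of endothelium alone or replicate 1 of endothelium with HSPC, and 8 and 12 without replicates 1 and 2 of stroma with HSPC. The median was -0.13 in endothelium and 0.77 in stroma. Chac1, which breaks down glutathione, rose in stroma from 206, 212 and 202 to 619, 407 and 593 FPKM. In endothelium it was at 9.34 to 11.2 FPKM alone and 8.52 to 8.86 FPKM with HSPC. Slc1a5, a glutamine transporter, rose in stroma from 118, 138 and 133 to 366, 280.2 and 353 FPKM, with 48.9 to 53.8 and 43.1 to 47.4 FPKM in endothelium. Vldlr, a lipoprotein receptor, rose by about the same amount in both, 1.91 and 1.85.

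Subunits of oxidative phosphorylation mostly fell in stroma, at small size: of 25 members, 17 fell and 1 rose in stroma, 3 fell and 2 rose in endothelium, and 16 had a higher interaction; 11 were one-sided in stroma. The endothelial rises numbered 1 without any 1 of replicates 1 and 2 of endothelium alone or with HSPC, and 4 without replicate 1 or 3 of stroma alone or replicate 2 of stroma with HSPC; the stromal rises numbered 2 without replicate 3 of stroma alone. The median stromal difference was -0.19, and the median endothelial difference lay within 0.05 of 0 and changed sign with the scaling. Cox6c, a subunit of cytochrome c oxidase, fell in stroma from 329, 395 and 389 to 223, 188 and 212 FPKM and lay at 318, 323 and 351 FPKM alone and 387, 351 and 327 FPKM with HSPC in endothelium.

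**Figure D3:**
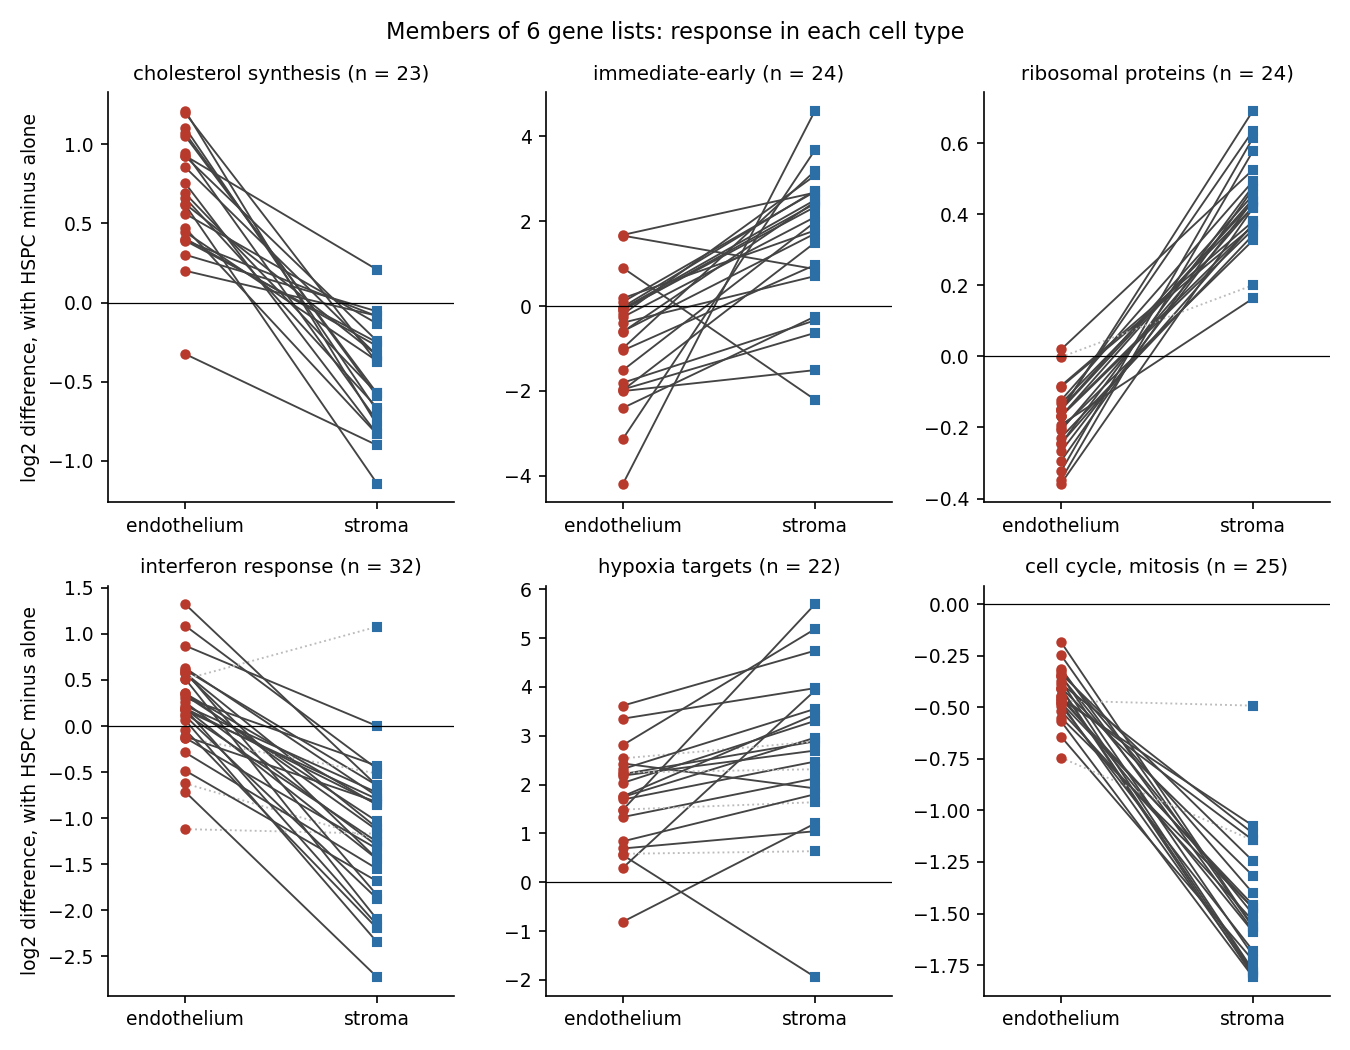
Response of every tested member of 6 gene lists in endothelium (red circles) and stroma (blue squares), as the log2(FPKM + 1) difference with HSPC minus alone; a line joins the 2 values of a gene, solid where the interaction was called and dotted where it was not. Most cholesterol synthesis and ribosomal protein genes cross 0, the 2 lists in opposite directions. Hypoxia targets and mitosis genes lie on one side of 0 in both cell types with few exceptions, and most lie farther from it in stroma.

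Most of the listed hypoxia targets rose in both cell types, mostly by more in stroma. The response to low oxygen is driven by HIF factors, which prolyl hydroxylases mark for decay when oxygen is present. Whether oxygen was low in these cultures was not tested. Of 22 hypoxia targets, 21 rose and 1 fell in endothelium, and 21 rose and 1 fell in stroma. The median was 1.76 in endothelium and 2.79 in stroma, and the interaction was lower in 16 members and higher in 2. Of 20 glycolysis genes, 20 rose in endothelium and 19 in stroma, with medians of 1.21 and 2.17; 14 had a lower and 1 a higher interaction, or 2 a higher one without replicate 1 of endothelium alone. The higher one was Pfkm, which rose by 0.41 in endothelium and differed by -0.04 in stroma, where it was not called.

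Egln3, one of the HIF prolyl hydroxylases, rose in both cell types by unequal amounts. It lay at 13.2, 13.8 and 11 FPKM in stroma alone and at 577, 817 and 742 FPKM with HSPC. In endothelium it was at 547, 553 and 529 FPKM alone and rose to 1529, 1589 and 1466 FPKM. The cell types lay far apart alone and nearer to each other with HSPC, with an interaction of -4.21 (SE 0.16, adjusted p = 8.91e-09). Ero1l, which oxidizes protein thiols in the endoplasmic reticulum, had a like level alone in both, 112, 98.2 and 111 FPKM in endothelium and 118, 129.9 and 128 FPKM in stroma. With HSPC it lay at 740.5, 812 and 724 FPKM in endothelium and 3741, 5457 and 4746 FPKM in stroma (interaction -2.37, SE 0.16, adjusted p = 4.9e-07). Car9, a carbonic anhydrase, rose by 3.93 in stroma, with 232, 229 and 222 FPKM alone and 3447, 3372 and 3619 FPKM with HSPC. In endothelium it rose by 0.30, with 4.6, 3.8 and 4.22 FPKM alone and 4.57, 5.58 and 6.16 FPKM with HSPC.

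Pfkfb3, which raises the flux through phosphofructokinase, rose from 39.5, 41.3 and 41.2 to 99.9, 98.5 and 89.6 FPKM in endothelium and from 31.8, 33.3 and 32.4 to 291, 388 and 316 FPKM in stroma. Gpi1, glucose-6-phosphate isomerase, rose by 0.84 in endothelium and 2.89 in stroma. Ldha, lactate dehydrogenase, rose by 1.32 and 2.13. The lactate exporter Slc16a3 rose by 3.63 and 3.40, with no called interaction (adjusted p = 0.418). Plod2, a collagen lysyl hydroxylase, rose by more in endothelium (2.43) than in stroma (1.92). Aqp1, a water channel, was opposite: it rose by 0.55 in endothelium and fell in stroma from 1187, 1087 and 1110.4 to 316, 281 and 284 FPKM. Epas1, the HIF subunit typical of endothelium, was opposite the other way. It fell by 0.81 in endothelium (409 to 449 FPKM alone) and rose by 1.20 in stroma (1.82 to 2.22 FPKM alone).

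The bases before Ero1l, Pfkfb3 and Ldha are shown because each holds the core of the hypoxia response element, ACGTG on either strand, in capitals; the palindrome CACGTG counts once per strand, and Ldha has 5 matches. The core occurs in 19.6% of the 32851 promoters, and in 24.7% of the 13983 promoters of tested genes that matched. It occurs in 62.5% of 24 promoters of the 18 hypoxia targets, of 22, that matched the table, and in 53.3% of 30 promoters of the 19 matched glycolysis genes. Ero1l (named Ero1a in the table) lies on the minus strand at chr14:45318573-45318692, Pfkfb3 on the minus strand at chr2:11553930-11554049 and Ldha on the plus strand at chr7:46845654-46845803 (RefSeq, GRCm38.p6).
Ero1l: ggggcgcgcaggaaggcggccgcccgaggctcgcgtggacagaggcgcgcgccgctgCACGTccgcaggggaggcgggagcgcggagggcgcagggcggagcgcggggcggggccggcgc
Pfkfb3: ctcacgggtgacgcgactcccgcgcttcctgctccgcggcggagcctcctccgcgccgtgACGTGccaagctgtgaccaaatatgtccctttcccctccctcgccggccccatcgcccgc
Ldha: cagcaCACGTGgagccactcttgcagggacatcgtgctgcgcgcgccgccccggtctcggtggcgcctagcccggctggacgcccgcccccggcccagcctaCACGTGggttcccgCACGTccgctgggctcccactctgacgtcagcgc

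Most of the listed proliferation genes fell in stroma. Of 25 mitosis genes, 18 fell in endothelium and all 25 in stroma, none rose, and 23 had a higher interaction, which here is a smaller fall in the endothelial libraries. The libraries with HSPC also hold RNA of the added cells, and its part in this difference was not tested. The number that fell in endothelium was 7 without replicate 3 of endothelium alone, and 9 and 10 without replicates 1 and 3 of endothelium with HSPC. The medians were -0.45 and -1.54. Of 26 DNA replication genes, 15 fell in endothelium and 22 in stroma, and 17 had a higher and 1 a lower interaction, or 2 a lower one without replicate 2 of stroma with HSPC or of stroma alone. The endothelial falls of this list numbered 8 and 9 without replicates 2 and 3 of endothelium alone and 9 without replicate 1 of endothelium with HSPC. Top2a, the topoisomerase of dividing cells, went from 148, 168 and 177 to 115, 129.7 and 125 FPKM in endothelium and from 41.6, 54.2 and 48.3 to 9.54, 16 and 14.2 FPKM in stroma. The endothelium had the higher level in both conditions. Mcm5, part of the replicative helicase, fell by 0.53 in endothelium and 1.91 in stroma. Cdk1, the kinase that drives entry into mitosis, fell by 0.45 and 1.14, and Cdc20, an activator of the anaphase-promoting complex, by 0.64 and 1.73.

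The bases before Cdk1 and Cdc20 are shown because each holds the cell cycle homology region, TTTGAA on either strand, in capitals near the start. The letters occur in 77.3% of 22 promoters of the 21 mitosis genes, of 25, that matched the table and in 17.9% of the 32851 promoters. Among the 13983 promoters of tested genes that matched, the share was 12.2%. Cdk1 lies on the minus strand at chr10:69352913-69353032 and Cdc20 on the minus strand at chr4:118437344-118437463 (RefSeq, GRCm38.p6).
Cdk1: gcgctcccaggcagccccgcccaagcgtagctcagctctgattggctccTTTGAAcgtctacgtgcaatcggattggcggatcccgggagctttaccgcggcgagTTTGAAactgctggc
Cdc20: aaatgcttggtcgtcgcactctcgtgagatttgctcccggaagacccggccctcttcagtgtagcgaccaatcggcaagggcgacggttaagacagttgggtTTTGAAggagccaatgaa

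One-sided responses in endothelium, among genes also expressed in stroma, numbered 702 rises and 427 falls. The largest falls included Eln, which encodes elastin: it went from 1523, 1686 and 1463 to 103, 70.4 and 78.1 FPKM in endothelium. In stroma it lay at 144, 141 and 137 FPKM alone and at 182, 127 and 261 FPKM with HSPC, where the groups overlapped, and the interaction was -4.59 (SE 0.30, adjusted p = 3.82e-07). Ckb, a creatine kinase, fell from 43.3, 45.5 and 42.2 to 3.01, 2.06 and 2.48 FPKM in endothelium, with 59 to 67.3 FPKM in stroma alone and 64 to 66.9 FPKM with HSPC. Fam129a fell by 2.65 in endothelium and differed by 0.22 in stroma, which was not called. Mgp, an inhibitor of calcification, was at 15.9, 13.6 and 2.33 FPKM in endothelium alone and listed at 0 with HSPC, a trace beside the 5107 to 5303 FPKM of stroma alone.

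Among the largest rises were 2 chemokines. Ccl7 rose in endothelium from 42.4 ± 6.83 to 395 ± 14.4 FPKM (SD, n = 3). In stroma it lay at 117, 133 and 146 FPKM alone and at 40.4, 184 and 57 FPKM with HSPC, where replicate 2 was above the cells alone and the other 2 below them. Ccl9, a chemokine of myeloid cells, was listed at 0 in endothelium alone and lay at 13.1, 19 and 10.8 FPKM with HSPC, with 5.44, 9.62 and 6.48 FPKM in stroma alone and 6.61, 8.58 and 5.76 FPKM with HSPC. Ifitm1 lay at 1.68, 1.54 and 0 FPKM in endothelium alone and 10.7, 13.4 and 8.45 FPKM with HSPC, with 9.78, 9.98 and 10.1 FPKM in stroma alone and 4.34, 11.3 and 4.02 FPKM with HSPC. Fam46a lay at 0.34, 0 and 0 FPKM in endothelium alone and 9.92, 12 and 9.35 FPKM with HSPC, against 73.9 to 80.4 FPKM in stroma alone. Beside these rises the summed level of the monocyte and macrophage genes lay between 224 and 245 FPKM in endothelium alone and between 577 and 616 FPKM with HSPC. In stroma it lay between 105 and 115 FPKM alone and between 108 and 124 FPKM with HSPC; the part of these cells in the rises was not tested.

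Of 15 chemokines tested, 7 had a higher and 1 a lower interaction, and 11 a higher one without replicate 2 of stroma with HSPC. Cx3cl1, a membrane-bound chemokine, was the lower one; it fell in endothelium from 34.7, 30.9 and 32 to 8.07, 6.72 and 6.48 FPKM. In NF-kB targets, 9 of 24 had a higher and 4 a lower interaction, and 15 a higher one without that library, beside 36% higher and 21.1% lower over all tested genes. Nfkbia, the inhibitor of NF-kB, rose by 0.47 in endothelium and fell by 0.71 in stroma. Il6, an inflammatory cytokine, rose in endothelium from 4.12, 4.34 and 3.54 to 14.2, 15 and 13.9 FPKM and was listed at 0 in stroma. Ptgs2, the inducible prostaglandin synthase, rose in stroma from 13.5, 25.4 and 26.5 to 119, 146 and 142 FPKM and was at 9.45 to 15.3 FPKM alone and 7.16 to 9.34 FPKM with HSPC in endothelium.

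Among genes typical of endothelium, most of those of the arterial program fell in endothelium and most of those of the sinusoidal and venous program rose. Of 20 arterial genes, 12 fell and 5 rose in endothelium; of 12 sinusoidal and venous genes, 9 rose and 2 fell. Over all tested genes 28.3% rose and 20.3% fell in endothelium, and the arterial rises did not exceed that share. The falls of the latter list numbered 1 without replicate 1 of endothelium alone or 3 of endothelium with HSPC, and 0 without replicate 2 of either. The interaction was lower in 11 and higher in 4 arterial genes, and higher in 10 and lower in 1 sinusoidal and venous genes. It was higher in 36% and lower in 21.1% of all tested genes. Gja4, an arterial connexin, fell from 172, 143 and 149 to 11.2, 4.61 and 6.35 FPKM in endothelium and was listed at 0 in stroma. Gja5, its larger relative, fell by 2.20, and Hey2, a Notch-induced repressor, by 1.83. Sox17, an arterial transcription factor, rose by 0.33. Stab1, a scavenger receptor of sinusoids, rose by 1.21 in endothelium (308 to 367 FPKM alone). Nr2f2, the venous transcription factor, rose by 0.90 in endothelium and fell by 0.33 in stroma.

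Other genes at or near 0 in stroma alone included Klk1, a kallikrein, which fell from 123, 93 and 75.7 to 3.36, 1.7 and 1.59 FPKM, and Sprr2b, a cornified envelope protein, which rose from 18.3, 23.3 and 20.7 to 426, 342 and 360.1 FPKM; both were listed at 0 in stroma and have close copies. Vwf, the clotting factor stored by endothelium, fell from 207, 229 and 211 to 60.8, 47.4 and 45.3 FPKM. Apln, the ligand of the apelin receptor, was expressed in both and opposite: it fell from 722, 831 and 867 to 429.5, 449.6 and 428 FPKM in endothelium and rose from 92.4, 89.1 and 87.3 to 484, 692 and 559 FPKM in stroma. Unc5b, a netrin receptor of sprouting vessels, fell by 0.70 in endothelium and rose by 2.43 in stroma. Plvap, a diaphragm protein of fenestrated endothelium, rose in both, in stroma from 3.53, 3.09 and 3.36 to 53.8, 54.1 and 58.6 FPKM.

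One-sided responses in stroma, among genes also expressed in endothelium, numbered 762 rises and 1477 falls. Nptx1, a pentraxin, fell in stroma from 17.7, 15.2 and 15.5 to 0.72, 0.78 and 0.85 FPKM and was at 680.4 to 845 FPKM alone and 754 to 799.6 FPKM with HSPC in endothelium. Amot, an angiostatin-binding regulator of YAP, fell in stroma from 172, 161 and 162 to 26.8, 31.9 and 28.2 FPKM, with 8.23 to 9.12 and 8.75 to 9.78 FPKM in endothelium. Olfml2a fell by 2.33. With the spread estimated over all 24 libraries the interactions of Nptx1 (adjusted p = 0.169, limma) and Olfml2a (0.0887) were not called. Among the rises, Sstr2, a somatostatin receptor, went from 1.13, 0 and 0 to 12.5, 6.43 and 14.3 FPKM in stroma, far below its 713 to 818 FPKM in endothelium alone. Ppp1r3b, a glycogen-targeting subunit of protein phosphatase 1, was listed at 0 in stroma alone and lay at 8.59, 20.1 and 12.4 FPKM with HSPC, while endothelium held 81 to 93.4 and 117 to 134 FPKM. Klf2, a flow-responsive factor, rose in stroma from 36.5, 36.2 and 38.5 to 247, 174 and 228 FPKM and lay at 694 to 722 and 639.95 to 736 FPKM in endothelium.

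Of genes that endothelium lacks, Ndufa4l2, a hypoxia-induced mitochondrial protein, rose in stroma from 72.9, 71.7 and 65.1 to 2125, 2027 and 2271 FPKM and was listed at 0 in all 6 endothelial libraries. Try5, a trypsinogen with close copies, was listed at 0 in stroma alone and lay at 34.9, 16 and 35.9 FPKM with HSPC. Gsg1l, an auxiliary subunit of glutamate receptors, lay at 0, 0 and 0.34 FPKM alone and 28.9, 21.2 and 36.2 FPKM with HSPC. Kctd16 was listed at 0 alone in both and lay at 35.3, 48.5 and 43.6 FPKM in stroma and 0.88, 1.19 and 1.22 FPKM in endothelium with HSPC. Agtr1a, the angiotensin receptor, fell in stroma from 65.5, 65.5 and 61.4 to 2.56, 5.22 and 3.41 FPKM and was listed at 0 in endothelium.

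Among 24 niche factors that act on hematopoietic stem cells, 7 had a shared response, 5 were opposite, and the interaction was higher in 4 and lower in 7; without replicate 2 of stroma with HSPC it was higher in 8. The 2 factors best known for stem cell maintenance, Cxcl12 and Kitl, were among the shared niche factors in the fit of all 12 libraries. Cxcl12 fell from 558, 658 and 640.2 to 255, 268 and 268 FPKM in endothelium and from 2685, 2698 and 2706 to 793, 1781 and 814 FPKM in stroma, differences of -1.22 and -1.36. In stroma with HSPC its replicate 2 lay far above the other replicates, and its class without that library is not given here. Kitl fell by 0.49 in endothelium and 0.38 in stroma. The interaction of Cxcl12 was 0.14 (SE 0.33, adjusted p = 0.745) and that of Kitl -0.10 (SE 0.11, adjusted p = 0.443), which does not show that the cell types responded alike.

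The Notch ligand Jag1 fell in endothelium from 180.3, 181 and 172 to 47.2, 43.6 and 45.6 FPKM and was at 61.5, 61.8 and 61.9 FPKM alone and 64.4, 67.5 and 69.7 FPKM with HSPC in stroma, where the small rise of 0.12 was called. Angpt1, a ligand of the Tie2 receptor, fell in stroma from 475, 491 and 484 to 147, 108 and 109 FPKM and was under 2 FPKM in endothelium. Ptn, pleiotrophin, fell in stroma from 2075, 2094 and 2250.5 to 378, 682 and 408 FPKM and was listed at 0 in endothelium. Spp1, osteopontin, rose in stroma from 1697, 1727 and 1812 to 4390.4, 4059 and 5277 FPKM and fell by 0.34 in endothelium. Igf2, a growth factor, fell in endothelium from 429.97, 387 and 391 to 85.1, 67.9 and 73.7 FPKM and was near 0 in stroma.

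Shared responses of like size included falls in Nrep, from 1492, 1485 and 1415 to 456, 406 and 436 FPKM in endothelium and from 852, 838 and 854 to 361, 211 and 328 FPKM in stroma, and in Plagl1, an imprinted zinc finger factor, by 1.46 and 1.73. Cbr2, a carbonyl reductase, fell by 1.66 and 1.37. With the spread estimated over all 24 libraries, limma gave adjusted p of 0.145 and 0.143 in endothelium and stroma for Nrep, 0.305 and 0.134 for Plagl1 and 0.168 and 0.191 for Cbr2, so that none of the 3 kept a call in either cell type, nor H2-L in stroma (0.0785). H2-L, a class I gene with close copies, fell by 2.78 and 2.04; the stromal fall lost its call (adjusted p of 0.0526 to 0.0705 from limma) when any 1 of replicates 1 and 3 of stroma alone or 1 and 2 of stroma with HSPC was left out. The endothelial fall was -1.79 without replicate 2 of endothelium alone, a group with 2.18, 32.6 and 4.89 FPKM. Among the shared rises, Selenbp1, a selenium-binding methanethiol oxidase, went from 27.4, 12.1 and 19.8 to 406, 450.02 and 366 FPKM in endothelium and from 3.02, 3.05 and 2.45 to 46.4, 78.4 and 61.6 FPKM in stroma. Smtnl2, a smoothelin-like protein, rose by 3.93 and 4.69. The other shared rises that the rule names, Ctsg and Ngp, are granule genes of blood cells.

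Shared responses of unequal size included Sox9, a transcription factor of cartilage and progenitors, which rose from 1.01, 0.67 and 0.86 to 34.1, 34.4 and 31.6 FPKM in endothelium and from 95.8, 92.2 and 86.7 to 156, 125 and 163 FPKM in stroma. Mt1, a metallothionein that binds zinc, was listed at 0 in endothelium alone and lay at 49.5, 61 and 52.3 FPKM with HSPC; in stroma it rose from 861, 951 and 936 to 2921, 4304 and 3039 FPKM. Ppbp, a platelet chemokine, was listed at 0 in endothelium alone and lay at 15.2, 73.5 and 26 FPKM with HSPC, with 2.85, 4.29 and 4.25 FPKM in stroma alone and 10.5, 8.4 and 15 FPKM with HSPC. Nppc, a natriuretic peptide, fell in both, from 335, 341 and 321 to 222, 224 and 225 FPKM in endothelium, and from 28, 35.5 and 28.1 FPKM in stroma alone to libraries that all list it at 0 with HSPC.

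Transcripts typical of blood cells differed between the co-cultures, most of them being higher with endothelium. The summed FPKM of 22 pan-hematopoietic genes was 399 to 414 in endothelium alone and 682 to 757 with HSPC, and 237 to 242 and 425 to 497 in stroma. Of the 22 members, 20 rose in endothelium and 19 in stroma, and 16 had a higher and 4 a lower interaction. Of 16 tested granulocyte genes 11 had a higher and 1 a lower interaction (2 without replicate 3 of stroma with HSPC), and of 11 monocyte and macrophage genes all 11 a higher one. Of these 11, 5 had a mean of at least 1 FPKM alone in both cell types. In the fit of such genes 3 of the 5 fell and 1 rose in stroma. The part of the feeder cells in their interactions was not tested. In all, 162 tested genes were listed at 0 in all 6 libraries alone; 120 of these had a higher and 29 a lower interaction. Among the 26 of them on a blood cell list with at least 5 FPKM in either co-culture, the ratio of the mean with endothelium to that with stroma had a median of 4.23. It ranged from 0.721 to 9.72. Many of the 26 reached 5 FPKM only in the co-culture with endothelium, such as Cd48 (5.12 FPKM, and 0.527 FPKM with stroma). The median therefore depends on this selection and does not measure by how much blood cell RNA differed.

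The ratio was not the same for all. Prtn3, an early granule protease, lay at 193, 289.7 and 199.7 FPKM with endothelium and 55.2, 54 and 48.4 FPKM with stroma, and Elane, neutrophil elastase, at 342, 444 and 364 and 121, 93.4 and 109.7 FPKM. Spi1, the master regulator of myeloid cells, lay at 12.6, 15.2 and 11.9 and 3.78, 2.42 and 3.17 FPKM. Ngp and Camp, proteins of late granules, did not follow: Ngp lay at 46.9, 18.5 and 22.9 FPKM with endothelium and 41.5, 32.6 and 21.3 FPKM with stroma, and Camp at 12.3, 7.23 and 9.78 and 18.2, 14.4 and 8.03 FPKM, so the libraries overlapped. For Ngp the ratio of means was 0.925, against 4.32 for Prtn3. Ccr2, a receptor of monocytes, lay at 9.58, 13 and 7.87 FPKM with endothelium and 1.81, 1.36 and 0.84 FPKM with stroma. Of 7 mast cell and basophil genes 4 had a higher and 0 a lower interaction (2 higher without replicate 1 of endothelium with HSPC), of 11 megakaryocyte genes 5 and 3 (1 to 3 higher without any 1 of 4 libraries), of 5 lymphoid genes 2 and 0 (1 higher without replicate 2 or 3 of stroma alone), and of 4 erythroid genes 0 and 2. Of 21 genes typical of HSPC, several of which endothelium also expresses, 9 had a higher and 8 a lower interaction. Myb, a factor of immature blood cells that was listed at 0 alone, lay at 12.3, 16.8 and 11.5 FPKM with endothelium and 2.87, 2.36 and 2.88 FPKM with stroma. Of 15 interleukin and colony-stimulating factor genes 3 had a higher and 2 a lower interaction (5 higher without replicate 2 of stroma with HSPC). Lcn2, a late granule protein that stroma also makes, lay at 27.1, 181 and 21.7 FPKM in stroma with HSPC, high in replicate 2.

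**Figure D4:**
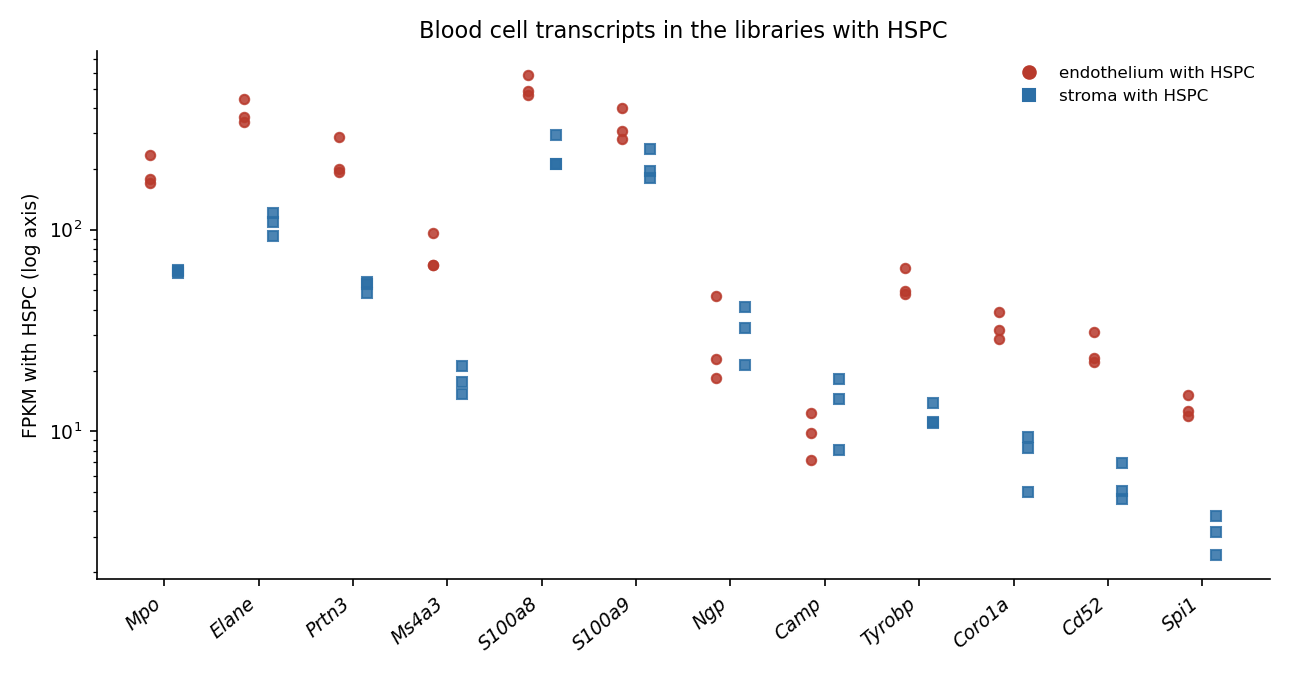
FPKM (log axis) of 12 blood cell genes in the 3 libraries of endothelium with HSPC (red circles) and the 3 of stroma with HSPC (blue squares). The endothelial libraries lie above the stromal ones for 10 of the genes, while those of Ngp and Camp overlap.

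Genes with a mean of at least 1 FPKM alone in both cell types were 82.4% of those tested and 81.8% of those with a called interaction. With that mean required, the interaction was called in 4133 genes upward and 2381 downward of 11549, and 1482 of the 1583 opposite genes were among the opposite ones of that fit.

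Among further vascular genes, the interaction was lower in 12 of 28 genes of endothelial identity and higher in 3 (5 without replicate 2 of stroma with HSPC), with 14 members rising and none falling in stroma, from traces, or 9 rising and 2 falling without that library. Their summed level in stroma lay between 303 and 352 FPKM alone and between 464 and 524 FPKM with HSPC, against 28255 to 28675 FPKM in endothelium alone, and 15 of the 28 members were at 0 in all 3 libraries of stroma alone and 7 in all 3 with HSPC. Erg, a transcription factor of endothelium, rose in stroma from 5.15, 5.2 and 4.54 to 21.6, 11 and 26.9 FPKM and lay at 402 to 409 FPKM in endothelium alone. Of 19 sprouting genes, 9 had a lower and 3 a higher interaction. Of 15 leukocyte adhesion molecules, 8 had a higher and 3 a lower interaction (5 lower without replicate 1 of stroma with HSPC); Selp, the P-selectin that captures leukocytes, rose in endothelium from 1.09, 1.01 and 1.42 to 9.72, 12.8 and 8.99 FPKM and was listed at 0 in stroma. Of 17 coagulation and fibrinolysis genes, 6 had a higher and 7 a lower interaction; Procr, the protein C receptor that also marks stem cells, fell by 0.39 in endothelium and rose by 1.35 in stroma. Of 18 vasoactive genes, 5 had a higher and 6 a lower interaction. Over all tested genes 36% had a higher and 21.1% a lower one.

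Stromal lineage genes were mixed. In the list of Lepr-positive stroma 5 of 13 members had a higher interaction, a count that was 2 or 3 without any 1 of 7 libraries, and 4 a lower one. Nt5e, the ectonucleotidase CD73, rose in stroma from 72.7, 71.6 and 70.3 to 189.5, 152 and 216 FPKM and fell in endothelium from 2.9, 3.65 and 3 to 0, 0.69 and 0.7 FPKM. Of 10 osteoblast genes, 6 fell and 2 rose in stroma, and 5 had a higher and 1 a lower interaction (2 lower without replicate 3 of endothelium alone). Of 5 adipocyte genes, 2 had a higher and 3 a lower interaction; Cebpb rose by 1.79 in stroma and 0.71 in endothelium. Of 9 smooth muscle and pericyte genes, 4 had a higher and 3 a lower interaction. Tagln, an actin-binding protein of smooth muscle, fell in stroma from 22.2, 27.9 and 43.2 to 4.95, 9.92 and 5.34 FPKM, while Notch3, a receptor of pericytes, rose from 3.09, 3.02 and 3.12 to 18.4, 44.5 and 28.1 FPKM.

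Matrix and growth factor lists held responses in both directions. Of 18 basement membrane genes, 8 had a lower and 4 a higher interaction; Lama3, a laminin chain, fell in endothelium from 20.2, 21.9 and 18 to 0.79, 0.58 and 0.62 FPKM, and Nid2, nidogen, fell in stroma from 946, 865 and 869 to 277, 365 and 289.7 FPKM. Of 24 matrix proteases and inhibitors, 10 had a lower and 9 a higher interaction. In PDGF and FGF signaling 8 of 15 members had a lower and 3 a higher interaction. Pdgfa, a ligand that acts on mesenchymal cells, fell in endothelium from 129, 133 and 118 to 43.7, 41.8 and 44.5 FPKM and by 0.33 in stroma. Fgf21, a metabolic hormone, rose in stroma from 3.48, 2.86 and 2.32 to 36.3, 15.5 and 27.9 FPKM and was listed at 0 in endothelium. Of 15 insulin-like growth factor and binding protein genes, 4 had a higher and 4 a lower interaction. Of 17 BMP targets and antagonists, 6 had a higher and 3 a lower interaction, shares near those of all tested genes (36% and 21.1%); Id3, an inhibitor of differentiation factors, fell in stroma from 422, 420.3 and 449 to 143, 194 and 135 FPKM. Of 8 Notch targets, 3 had a lower and 1 a higher interaction.

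Stress lists held responses in both directions. Of 18 genes of the unfolded protein response, 14 rose in endothelium and 11 in stroma, and 5 had a lower interaction (8 without replicate 2 of stroma with HSPC) and 6 a higher one; Hspa5, the chaperone BiP, rose by 0.44 and 1.26. Of 15 heat shock genes, 6 had a higher and 5 a lower interaction (3 lower without any 1 of 4 libraries); Hspb1, a small heat shock protein, fell by 1.31 in endothelium and rose by 1.18 in stroma. Of 19 Nrf2 targets, 10 had a lower and 6 a higher interaction; Hmox1, heme oxygenase, went from 541, 574 and 573 to 1854, 2036 and 2007 FPKM in stroma. Of 7 genes of the metal response, 3 had a higher and 3 a lower interaction. The median interaction changed sign with the scaling in the unfolded protein, heat shock, metal response, FoxO, insulin-like growth factor, interleukin and HSPC lists.

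In the circadian clock 10 of 18 members had a lower and 2 a higher interaction (4 higher without replicate 2 of stroma with HSPC); Per2, a clock repressor, fell by 0.99 in endothelium and rose by 1.02 in stroma. Of 10 Wnt targets, 6 fell in endothelium and 9 in stroma, and 6 had a higher interaction. Dkk2, a Wnt antagonist, fell in stroma from 41.5, 43.7 and 43.5 to 4.58, 4.91 and 2.3 FPKM. Of 20 p53 targets, 10 had a lower and 3 a higher interaction; Cdkn1a, which arrests the cell cycle, rose by 0.94 in endothelium and 2.52 in stroma. Of 18 cytoskeletal and SRF target genes, 11 had a higher and 4 a lower interaction; Actg1, a cytoplasmic actin, fell by 1.05 in stroma. In the Akt and mTOR pathway 10 of 28 members had a higher and 8 a lower interaction, and among 20 FoxO targets 8 a higher and 6 a lower one; over all tested genes 36% were higher and 21.1% lower.

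**Figure D5:**
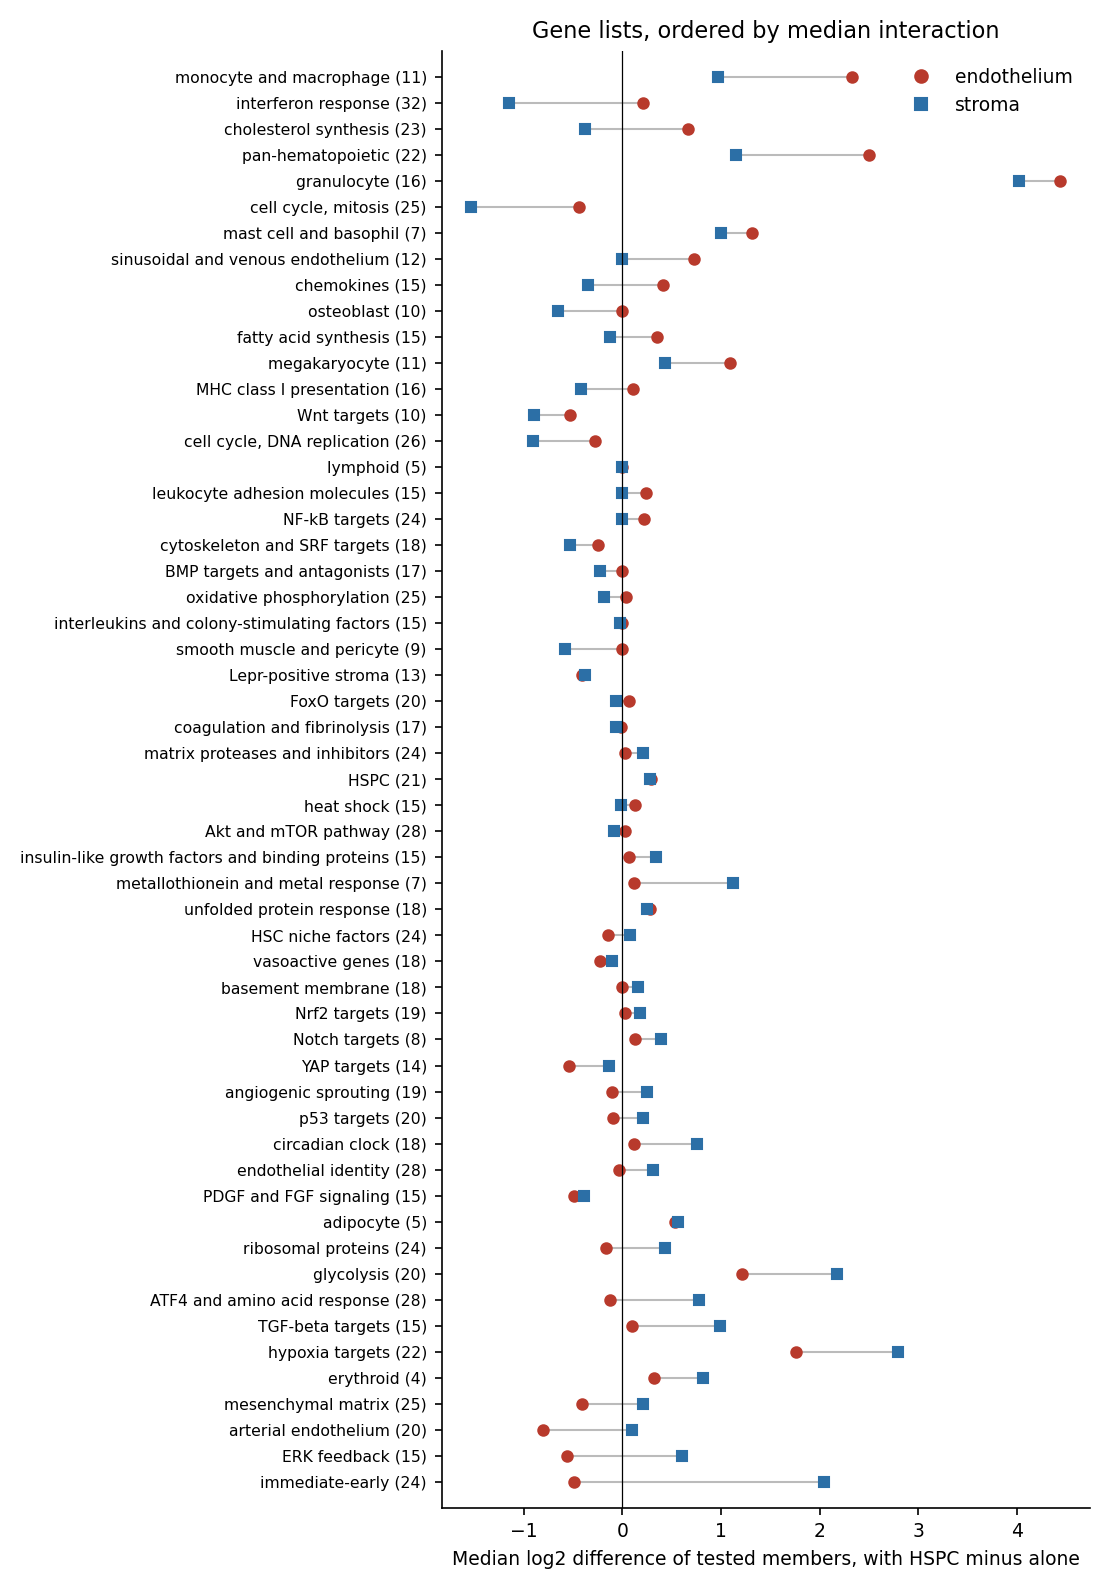
Median response of the tested members of each gene list (number in parentheses) in endothelium (red circles) and stroma (blue squares), as the log2(FPKM + 1) difference with HSPC minus alone, ordered by the median interaction. The medians lie on opposite sides of 0 for immediate-early genes (-0.49 and 2.04), ribosomal proteins (-0.17 and 0.43), cholesterol synthesis (0.66 and -0.38) and interferon response (0.21 and -1.15).

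The levels of leading genes in the other libraries of the series give a scale for these changes. The series also holds the 2 cell types in a first culture and in vivo, with 3 libraries each. Fos lay at 5.97 to 6.41 FPKM in the first endothelial culture, 3.94 to 7.07 FPKM in the first stromal culture, 5148 to 10249 FPKM in endothelium in vivo and 7753 to 10411 FPKM in stroma in vivo. The values in the co-culture arm thus lay between those of the first cultures and the cells in vivo. Ero1l lay at 66.9 to 79.6 FPKM in endothelium in vivo and 48.6 to 55.8 FPKM in stroma in vivo. These values lay below every library of the co-culture arm, alone or with HSPC. Jam2 lay at 140.4 to 668 FPKM in the first endothelial culture and 362 to 499 FPKM in vivo, also below the endothelium with HSPC. Chst2 lay at 343 to 435 FPKM in endothelium in vivo and 53.6 to 64.6 FPKM in stroma in vivo, the order seen with HSPC and not alone. Tgfbi lay at 235 to 292 FPKM in endothelium in vivo and 49.2 to 61.8 FPKM in stroma in vivo, the reverse of the order with HSPC.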

How the data were processed

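FPKM per gene were taken from 12 libraries of polyA RNA, 3 in each of 4 groups; per the submitters' processing notes, the authors made these deposited FPKM with TopHat, Cufflinks and mm9, with no version or option given in the sources used here. Depth is unknown, so no interval or detection limit from counts is given. Per library the FPKM summed to between 1527850 and 1678540, and 12447 to 12959 genes had at least 1 FPKM. Groups follow the sample names, no column lacked a sample, and the values of the 4 groups were fitted together with limma 3.58.1 (trend, R 4.3.3) on log2(FPKM + 1), with 1 spread per gene, 3 contrasts and Benjamini-Hochberg adjustment over the 14017 tested genes; every adjusted p, two-sided, is from this test. It was tested on simulated data. The filter and classes are described with the results; "expressed in both" means a mean of at least 5 FPKM in the other cell type. Tables and plots used Python 3.11.15, pandas 2.3.3, numpy 2.4.6, scipy 1.17.1 and matplotlib 3.10.9.

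The members and the 55 gene lists were chosen with earlier results of these data known. Named genes had at least 10 FPKM in a group and libraries that did not overlap wherever a response was called, and were the largest of each class, with up to 3 of each list by interaction, leaving out clone names and hairpins; other list members were picked as examples after their values were seen. Of 1086 list entries 1083 were in the files; the lists hold 969 genes, of which 853 were tested and 100 stand in more than 1 list. RefSeq promoters (GRCm38.p6) matched 11002 of 14017 tested genes by symbol, or by older symbol; a list with under 80% matched, and the response classes, got no motif share. The files hold no coordinates. Other pseudocounts, filters, scalings, fits and left-out libraries were tried.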

Additional observations from a re-analysis of the deposited data

Results flagged for a closer look

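The interaction is itself a test that 2 groups' responses differ, so every named gene with a called interaction that the rule took by class is listed here, as log2 interactions from limma on 12 libraries; a positive value is a more upward response in endothelium. Over all tested genes 5045 interactions were higher and 2951 lower.

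Among opposite genes that rose in endothelium and fell in stroma, the interaction was 3.97 for Chst2, 3.52 for Syt13, 2.89 for Tgfb3, 2.80 for Ccl2, 2.75 for Lmcd1, 2.20 for Nsg1 and 1.08 for Akt1. Among those that fell in endothelium and rose in stroma, it was -8.79 for Fosb, -6.80 for Fos, -5.53 for Tgfbi, -4.98 for Col15a1, -3.86 for Chst3 and -3.61 for Ctgf.

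Where only the endothelial response was called, rises gave 3.99 for Ccl7, 3.92 for Ccl9, 3.29 for Ifitm1, 3.18 for Fam46a and 4.12 for Sprr2b, and falls gave -4.59 for Eln, -3.73 for Ckb, -2.99 for Mgp, -2.87 for Fam129a, -4.95 for Klk1 and -4.29 for Gja4. Where only the stromal response was called, rises gave -3.33 for Sstr2, -3.28 for Ppp1r3b, -3.27 for Dusp1, -3.19 for Ptgs2, -4.92 for Ndufa4l2, -4.82 for Try5 and -4.25 for Gsg1l, and falls gave 3.27 for Nptx1, 2.61 for Iigp1, 2.60 for Olfml2a and 2.57 for Amot. With the spread estimated over all 24 libraries, the interactions of Ccl2 (adjusted p = 0.166, limma), Nptx1 (0.169) and Olfml2a (0.0887) were not called.

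Where both cell types moved one way by unequal amounts, the interaction was 4.40 for Nppc, 3.90 for Mt1, 3.66 for Ppbp and 3.54 for Sox9, and -4.36 for Kctd16 and -4.21 for Egln3. Values for Mt1, Ppbp, Nppc, Kctd16, Ccl9, Mgp, Ppp1r3b, Gsg1l and Try5 involve a group listed at 0, so their size depends on the 1 FPKM added before the logarithm.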

How the results depend on the processing

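The counts of calls and of response classes stayed within 1.5 times the reported ones under a pseudocount of 0.1 FPKM, no filter, a filter at 5 FPKM, trimmed-mean scaling, quantile normalization, a weight per group, the replicate block, genes expressed alone in both cell types and fits of 1 cell type (endothelium 4285 rises and 3164 falls, stroma 3126 and 4462). They were smaller when the spread was estimated over all 24 libraries: 1442 higher and 832 lower interactions, 1248 rises and 586 falls in endothelium, 1627 and 1972 in stroma, and 137 opposite, 457 shared, 142 unequal, 565 one-sided endothelial and 1256 one-sided stromal genes. That fit adds the first cultures and the cells in vivo. The log2 differences are the same in both fits, so the counts differ through the estimated spread. In the first endothelial culture, for example, Ccl2 ranged from 14.3 to 819 FPKM. The source of the wider spread was not tested. Requiring at least 2-fold gave, by its construction, 1106 and 814 interactions, 667 and 351 in endothelium, 823 and 730 in stroma, and 39 opposite, 199 shared, 102 unequal, 497 one-sided endothelial and 897 one-sided stromal genes.

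Leaving out 1 library at a time gave 4518 to 5238 higher and 2666 to 3143 lower interactions, 3292 to 4398 rises and 2321 to 3230 falls in endothelium, and 3153 to 3684 rises and 4402 to 4940 falls in stroma. Opposite genes numbered 1322 to 1884, shared 1336 to 1507, unequal 1081 to 1680, one-sided endothelial 1455 to 1810 and one-sided stromal 2827 to 3315. Of the 1583 opposite genes, 1248 were kept (78.8%) after quantile normalization and 137 (8.65%) with all 24 libraries. Of 183 named results 122 kept their call throughout. The interaction of Kit reversed to -0.0845 (adjusted p = 0.929, limma) with a pseudocount of 0.1.

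Same-numbered libraries did not deviate together (r of -0.0404 to 0.130 over 3 pairs per cell type). So few pairs cannot show whether the numbers pair the libraries. The replicate block gave 4953 higher and 2902 lower interactions, with 7720 of the 7996 kept. Unknown depth limits what can be said of genes near 0 FPKM.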
